A study of Mus musculus with 12 samples.

Results

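Leydig cells are the androgen-producing cells between the seminiferous tubules, and 10 of their genes were followed through the purification of L1 ORF1p complexes from mouse testis. They are *Cyp17a1*, *Cyp11a1*, *Star*, *Hsd3b1*, *Hsd3b6*, *Hsd17b3*, *Insl3*, *Lhcgr*, *Nr5a1* and *Scarb1*. They were chosen by name, and all 10 were found among the 20981 genes that the expression tables list. The 12 RNA-seq libraries came from testes of *Mael*-/- mice on the C57BL/6 background at about 3 months of age, with 3 libraries in each of 4 groups. *Mael* is a gene of the piRNA pathway, and spermatocytes that lack it overexpress the retrotransposon LINE-1 (L1), whose RNA-binding protein is L1 ORF1p. All 4 groups carry the mutation, so no wild-type level is part of the comparison. TOTAL was RNA of the clarified testis extract. INPUT was RNA of pooled fractions 5 to 8 of a 10 to 50% sucrose gradient run with 10 mM EDTA, which takes ribosomes apart. IP was RNA pulled from INPUT with an antibody against L1 ORF1p on beads, and BO (beads only) was RNA that stayed on beads without antibody in the same INPUT. The question for these genes was what share of the RNA of each pool came from genes of a somatic cell type.

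Leydig cells take up cholesterol from lipoproteins and from their own synthesis and turn it into testosterone. Luteinizing hormone binds its receptor Lhcgr on the cell surface, cyclic AMP rises, and the Star protein then moves cholesterol to the inner mitochondrial membrane. There Cyp11a1 cuts the side chain and makes pregnenolone, the 3β-hydroxysteroid dehydrogenases Hsd3b1 and Hsd3b6 and the enzyme Cyp17a1 convert it to androstenedione, and Hsd17b3 makes testosterone. Nr5a1, also called steroidogenic factor 1, is the nuclear receptor that drives many genes of this pathway. Scarb1 is the receptor that takes up cholesterol esters from high-density lipoprotein, and Insl3 is the peptide hormone of Leydig cells that acts in testis descent. In the adult testis these RNAs are made mostly in Leydig cells, although *Nr5a1* and *Scarb1* are also used in Sertoli cells, while L1 overexpression in the mutant is in germ cells.

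The values are normalized read counts as the authors' group means, from 3 tables that set IP beside BO, INPUT or TOTAL and were normalized separately. Libraries are brought to a common scale in this unit by the authors' normalization, which does not make their summed counts equal. It gives levels relative to other genes and not the amount of RNA recovered. A ratio of such counts is therefore not a ratio of pool shares, which are given apart as percent of the summed gene means. The IP means of the 3 tables rest on the same 3 IP libraries, and together they fix the whole number of reads of each gene in each IP library. These libraries are called A, B and C, since they could not be tied to replicate numbers, and they hold 21387454, 19754089 and 20549345 gene reads. TOTAL, INPUT and BO are group means with no spread between libraries, and the authors' own tests were not used, so no p-value is given. A gene was counted as higher or lower when its mean differed by more than 2-fold, a log2 ratio above 1 or below -1 with a pseudocount of 1. *Mael* itself had 0 reads in the IP libraries and a mean of 0.650 in TOTAL, 0 in INPUT and 0.502 in BO. In the counts of genomic repeats, which are given per library, 52.1% of the signal of BO replicate 3 was on large-subunit rRNA, against 1.93 to 15.9% in the other 11 libraries. This library is part of every BO mean below and could not be left out.

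Of the 10 genes, 2 are close copies of each other. *Hsd3b1* (chr3:98852194-98859794, minus strand, GRCm38) and *Hsd3b6* (chr3:98805504-98814443, minus strand) have coding sequences of 1119 nt each that are 90.0% identical, with 112 differing bases and no gap. A stretch of 75 coding bases from the middle of each, as long as 1 read, shows how reads of the pair can be told apart. It is coding bases 523 to 597, in exon 5 of *Hsd3b1* (chr3:98853077-98853151) and exon 4 of *Hsd3b6* (chr3:98806385-98806459), taken from GENCODE M21 transcripts, and capitals mark the 6 bases that differ.
Hsd3b1: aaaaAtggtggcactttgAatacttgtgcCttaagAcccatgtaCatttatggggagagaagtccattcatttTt
Hsd3b6: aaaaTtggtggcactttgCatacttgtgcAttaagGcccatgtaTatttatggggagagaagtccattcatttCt
No 75-nt window of the longest *Hsd3b1* transcript was found in *Hsd3b6* and 1.40% were found in *Gm12431*, while 7.93% of the *Hsd3b6* windows were also found in *Hsd3b2* or *Hsd3b3*. *Hsd3b2* and *Hsd3b3* had a mean of 0 in the IP, INPUT and BO groups, and in TOTAL they stood at 0.534 and 0.

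The gene with an uncertain count is *Insl3* (chr8:71689214-71690575, plus strand). It lies within *Jak3*, a kinase gene on the same strand, and 404 nt of their exons overlap. Of its 75-nt windows, 60.1% were also found in *Jak3* transcripts, so the counted reads can come from only a part of its 623 nt transcript or can be shared with *Jak3*. *Jak3* means were 334 in TOTAL and 195 in IP, where those of *Insl3* were 1744 and 90.1. The other genes had no exon overlap with another gene on their own strand.

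In TOTAL, the Leydig cell genes were among the most abundant RNAs of these testes. Per kilobase of the longest coding transcript, *Cyp17a1* (chr19:46667165-46673172) came first of the 10 with a normalized count of 12440, higher than in 99.9% of 13994 genes. *Cyp11a1* (chr9:58006411-58027023) followed at 8318, *Hsd3b6* at 7837 and *Hsd3b1* at 7250 per kilobase. *Star* (chr8:25806555-25815982) stood at 3671, *Insl3* at 2800 and *Hsd17b3* (chr13:64058266-64089230) at 2208 per kilobase. Each of these 7 was higher per kilobase than at least 97.6% of the genes. *Nr5a1* (chr2:38692656-38714542), the transcription factor, had 1827 and *Scarb1* (chr5:125277087-125341094) had 1221 per kilobase. *Lhcgr* (chr17:88716481-88791990), with the longest transcript of 6828 nt, had 198 per kilobase, near the middle of all genes at the 56.6th percentile. Since only group means are known, whether neighbours in this order differ beyond their spread cannot be said. Together the 10 genes made up 0.638% of the summed gene means in TOTAL, 0.342% in INPUT, 0.0849% in IP and 0.0653% in BO. The share in TOTAL, a bulk extract, does not tell the number of Leydig cells from the amount of RNA per cell.

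All 10 genes were lower in IP than in TOTAL by more than 2-fold, whereas 26.2% of the 14666 genes tested were lower and 20.4% were higher. The median log2 ratio of the 10 was -2.57, beside -0.03 over all genes, and each of the 3 IP libraries was below the TOTAL mean for each gene. Of the enzyme that opens the pathway, *Cyp11a1*, the IP libraries A, B and C held normalized counts of 4508, 4568 and 6697, and the TOTAL mean was 17634. Its log2 ratio was -1.75, a mean of 5257 ± 1247 (SD, n = 3) in IP. *Cyp17a1*, which makes androgens from pregnenolone and progesterone, held 4201, 4600 and 6193 in the IP libraries and 29894 in TOTAL, a log2 ratio of -2.58. Library C was the highest for both enzymes and was still far below TOTAL.

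*Star* held 2511, 2316 and 2746 in the IP libraries A, B and C and 14852 in TOTAL, a log2 ratio of -2.56. *Hsd3b1* held 2133, 2322 and 2613 against 13449 in TOTAL, a log2 ratio of -2.51. *Hsd3b6* held 1332, 1324 and 1720 against 14123 in TOTAL, a log2 ratio of -3.27. The pair of 3β-hydroxysteroid dehydrogenase genes thus had nearly the same level in TOTAL, and in IP every *Hsd3b1* value was above every *Hsd3b6* value. *Hsd17b3*, whose product makes testosterone, held 286, 313 and 262 in IP and 2839 in TOTAL, a log2 ratio of -3.30.

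Among the genes for control and supply, *Nr5a1* held 1976, 1858 and 2026 in the IP libraries and 5469 in TOTAL, a log2 ratio of -1.48, the one nearest to 0 of the 10. *Scarb1* held 806, 771 and 914 against 3079, a log2 ratio of -1.89. *Lhcgr* held 117, 139 and 246 against 1354, a log2 ratio of -3.01. *Insl3* was farthest from 0, with 42.9, 68.7 and 158 in IP and 1744 in TOTAL, a log2 ratio of -4.26, or -4.94 without library C. The receptor and the peptide hormone were also the genes with the widest spread between the IP libraries.

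**Figure D1:**
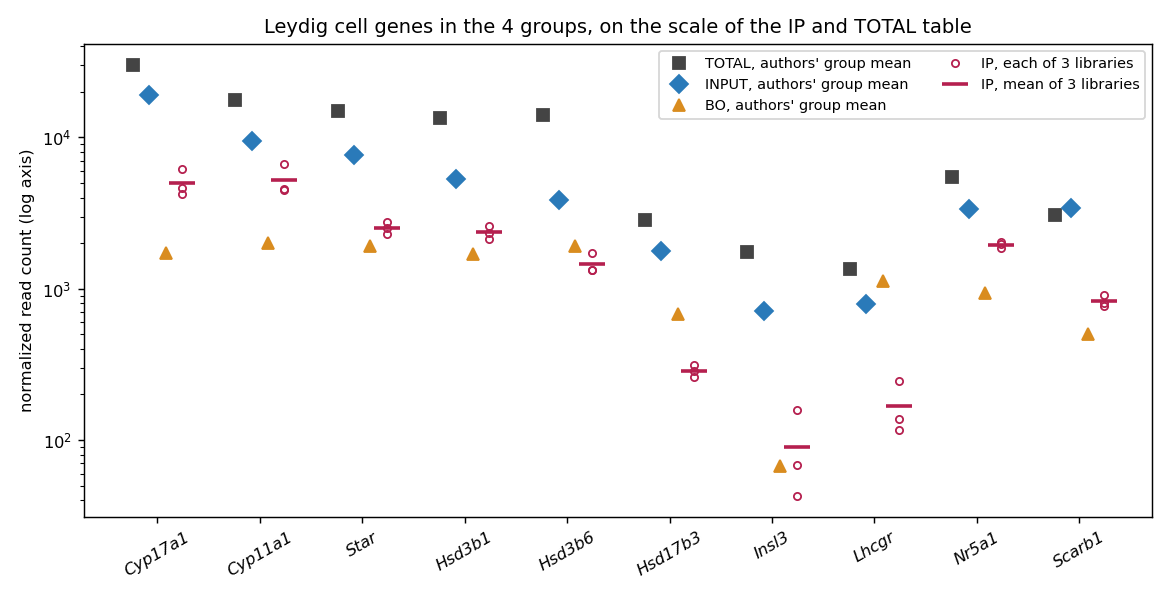
Normalized read count (log axis) of the 10 Leydig cell genes in TOTAL, INPUT and BO (authors' group means, no spread known) and in the 3 IP libraries (open circles, with their mean as a bar), with INPUT and BO brought to the scale of the IP and TOTAL table. TOTAL is the highest group for 9 genes, and *Lhcgr* has a BO mean of 1120 above the 3 IP libraries at 117 to 246.

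The difference between TOTAL and IP can be split at INPUT, the material from which IP was drawn. INPUT and TOTAL do not share a table, so their means were joined over the IP means of both tables, which differed between the tables by 0.373% at the median gene and by 0.742% at the 95th percentile of genes. On this joined scale 9 of the 10 genes were lower in INPUT than in TOTAL, 3 of them by more than 2-fold, whereas 18.3% of 14618 genes were lower and 2.29% were higher by that measure. The 3 genes were *Hsd3b6* at a log2 ratio of -1.86, *Hsd3b1* at -1.34 and *Insl3* at -1.29. *Star* was at -0.96, *Cyp11a1* at -0.89, *Lhcgr* at -0.76, *Nr5a1* at -0.70, *Hsd17b3* at -0.67 and *Cyp17a1* at -0.65. *Scarb1* alone was not lower, with 3404 in INPUT and 3079 in TOTAL, a log2 ratio of 0.14. The median gene stood at -0.16, so relative to it each value is higher by 0.16.

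Between INPUT and IP, 8 of the 10 genes were lower in IP by more than 2-fold, whereas 14.6% of 14400 genes were lower and 20.5% were higher. The median log2 ratio of the 10 was -1.76, and that of all genes 0.15. *Insl3* had an INPUT mean of 714 and 89.6 ± 58.0 (SD, n = 3) in IP, a log2 ratio of -2.98, or -3.62 without library C. *Hsd17b3* had 1790 in INPUT and 289 ± 32.4 in IP, a log2 ratio of -2.63. *Lhcgr* had 800 in INPUT and 167 ± 64.4 in IP, a log2 ratio of -2.25. These 3 genes were also the ones with the fewest reads, 226, 765 and 430 over the 3 IP libraries.

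*Scarb1*, which was not lower in INPUT than in TOTAL, had 3417 in INPUT and 833 ± 53.4 in IP, a log2 ratio of -2.03. *Cyp17a1* had 19062 in INPUT and 5007 ± 925 in IP, a log2 ratio of -1.93. *Star* had 7670 and 2534 ± 159, a log2 ratio of -1.60. The genes of the 3β-hydroxysteroid dehydrogenases were nearer to each other in this step than in the first, *Hsd3b6* at -1.41 with 3891 in INPUT and *Hsd3b1* at -1.17 with 5323. The 2 genes within 2-fold were *Cyp11a1*, with 9565 in INPUT and 5264 ± 1105 in IP (log2 ratio -0.86), and *Nr5a1*, with 3369 and 1962 ± 58.4 (log2 ratio -0.78). For both, all 3 IP libraries were below the INPUT mean, and without library C *Cyp11a1* was at -1.05, past 2-fold.

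The bead control gave a different order. Against BO, 3 of the 10 genes were higher in IP by more than 2-fold and 2 were lower, whereas 43.9% of 13634 genes were higher and 11.2% were lower. The median log2 ratio of the 10 was 0.44 and that of all genes 0.81, so the median of the 10 lay below that of all genes by 0.37. *Cyp17a1* had a BO mean of 1326 and 3212, 3595 and 4660 in the IP libraries A, B and C, a log2 ratio of 1.53. *Cyp11a1* had 1534 in BO and 3447, 3569 and 5039 in IP, a log2 ratio of 1.39. *Nr5a1* had 713 in BO and 1511, 1452 and 1524 in IP, a log2 ratio of 1.07. Relative to the median gene these 3 were at 0.72, 0.58 and 0.26, still above 0 and no longer past 2-fold.

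*Scarb1* had 386 in BO and 635 ± 45.6 (SD, n = 3) in IP, a log2 ratio of 0.72. *Hsd3b1* had 1294 in BO and 1804 ± 168 in IP, at 0.48, and *Star* had 1460 and 1932 ± 129, at 0.40. In each of these 3 genes all IP libraries were above the BO mean, and relative to the median gene all 3 were below 0, at -0.09, -0.33 and -0.41. *Hsd3b6* had 1464 in BO and 1116 ± 155 in IP, a log2 ratio of -0.39, so the closely related dehydrogenase genes lay on different sides of their BO means, although relative to the median gene *Hsd3b6* (-1.20) and *Hsd3b1* were both below 0. *Insl3* had 51.9 in BO and 32.8, 53.7 and 119 in IP, with the BO mean inside the range of the IP libraries, and its log2 ratio of 0.40 became -0.26 without library C.

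*Hsd17b3* and *Lhcgr* were the genes lower in IP than in BO by more than 2-fold. *Hsd17b3* had a BO mean of 518 and 219, 245 and 197 in the IP libraries, a log2 ratio of -1.23 that lay between -1.32 and -1.16 when any 1 IP library was left out. *Lhcgr* had 858 in BO and 89.5, 108 and 185 in IP, a log2 ratio of -2.74, lower than in 98.8% of the genes tested. Without any 1 IP library the *Lhcgr* value lay between -3.10 and -2.54. The *Lhcgr* reads behind the BO mean numbered at least 1708 and at most 3589, against 430 in the 3 IP libraries together.

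**Figure D2:**
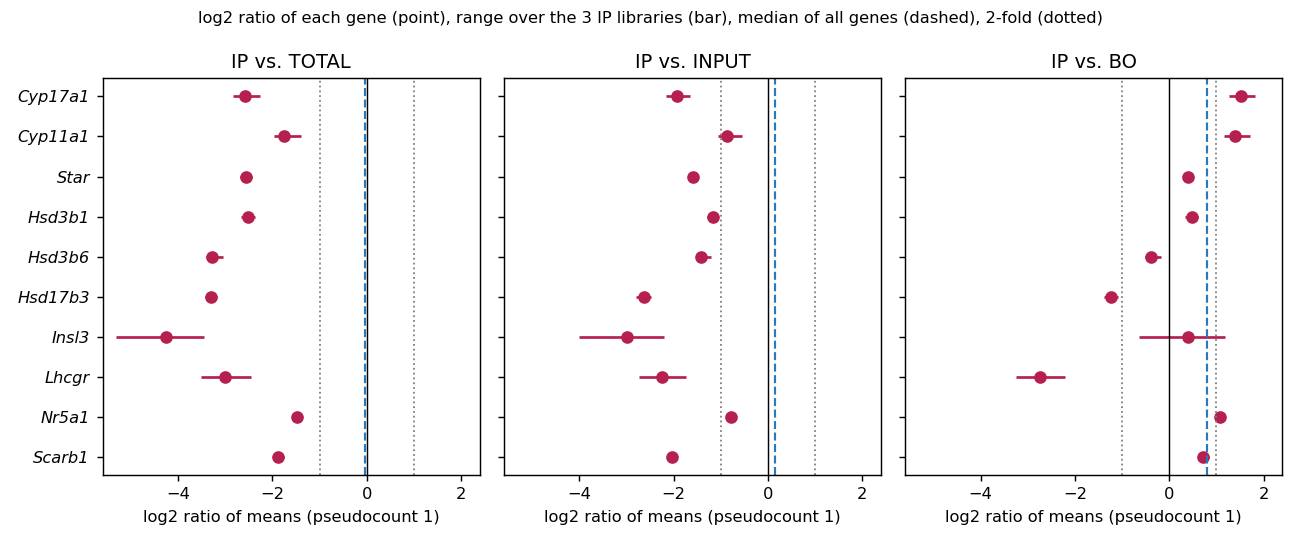
log2 ratio of IP to TOTAL, INPUT and BO (pseudocount 1) for the 10 genes, computed from the means (points), with the range over the 3 IP libraries (bars), the median of all genes tested (dashed) and 2-fold (dotted). All 10 genes lie left of -1 against TOTAL, 8 against INPUT and 2 against BO, where 3 lie right of 1; the 3 panels share the IP libraries.

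BO and INPUT were compared over the IP means as well, joined by a factor of 0.763, with 0.762 to 0.764 from the 5th to the 95th percentile of genes. On beads without antibody 9 of the 10 genes were lower than in INPUT by more than 2-fold, whereas 34.4% of 14143 genes were lower and 9.4% were higher. *Cyp17a1* was at a log2 ratio of -3.45, lower than in 99.6% of genes, *Insl3* at -3.37 and *Scarb1* at -2.75. *Cyp11a1* was at -2.25, *Nr5a1* at -1.85, *Hsd3b1* at -1.65, *Hsd17b3* at -1.40 and *Hsd3b6* at -1.02. *Star* stood at 1915 in BO on the INPUT scale, against 7670 in INPUT. *Lhcgr* alone was higher in BO than in INPUT, at 0.49. The median gene stood at -0.56, and relative to it *Hsd3b6* (-0.46) and *Hsd17b3* (-0.83) were no longer past 2-fold, while *Lhcgr* (1.05) was past it.

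On the scale of the IP and TOTAL table, the order TOTAL, INPUT, IP, BO from high to low held for 6 genes, *Cyp17a1*, *Cyp11a1*, *Star*, *Hsd3b1*, *Insl3* and *Nr5a1*. Relative to the median gene, *Star* (-0.41), *Hsd3b1* (-0.33) and *Insl3* (-0.41) of these were lower in IP than in BO. Without IP library C *Insl3* was also lower in IP than in BO (-0.26). The median log2 ratio of all genes was -0.16 for INPUT against TOTAL, 0.15 for IP against INPUT and 0.81 for IP against BO. The share of all genes with the order of these 6 was not counted, so the number 6 has no background beside it. For *Hsd3b6* and *Hsd17b3* the order was TOTAL, INPUT, BO, IP. *Scarb1* had INPUT first, and *Lhcgr* went TOTAL, BO, INPUT, IP. The normalized count in IP was 35.7% of that in TOTAL for *Nr5a1*, 29.8% for *Cyp11a1* and 5.16% for *Insl3*, whose log2 ratio of -4.26 was -4.94 without IP library C. The normalized count in BO was 82.7% of that in TOTAL for *Lhcgr* and 3.88 to 23.9% for the other genes. These percentages compare normalized counts and not pool shares. *Nr5a1* made up 0.00833% of the summed gene means in IP and 0.0334% in TOTAL. The spread is known for IP only, and the BO mean fell within the range of the IP libraries for *Insl3* and for no other of the 10 genes, on the scaling of the deposited values.

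The spread between the IP libraries differed from gene to gene. Among 10263 genes whose IP mean reached 100, the median SD of the log2 values between the libraries was 0.19 on the scale of the TOTAL table, and *Nr5a1* (0.06), *Star* (0.12), *Scarb1* (0.13), *Hsd17b3* (0.13) and *Hsd3b1* (0.15) were below it. *Hsd3b6* was at 0.22, *Cyp17a1* at 0.29 and *Cyp11a1* at 0.32, and of the genes within 2-fold of the IP means of the latter pair 12.0% and 8.35% had an SD as high. *Lhcgr* was at 0.56, and of the 3098 genes within 2-fold of its IP mean 1.42% had an SD as high. *Insl3* was at 0.94, and of 2775 genes near its mean 0.144% had an SD as high.

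In read numbers, *Insl3* had 44, 59 and 123 reads in IP libraries A, B and C, with exact 95% Poisson intervals of 32.0 to 59.1, 44.9 to 76.1 and 102 to 147. *Lhcgr* had 120, 119 and 191 reads, with intervals of 99.5 to 143, 98.6 to 142 and 165 to 220. The interval of library C did not overlap the others for either gene, nor did it for *Cyp17a1*, *Cyp11a1* and *Hsd17b3*, the last of them lower in C. For *Star*, *Nr5a1* and *Scarb1* the interval of library A stood apart, higher than the others, and for *Hsd3b6* that of library B, lower. So library C was not the only one to stand apart. The read numbers are not adjusted for depth, and the share of all genes with such intervals was not counted. The intervals cover counting error only, so they leave out the variation between separate libraries. Library C had the highest normalized count for 9 of the 10 genes, as it had for 72.8% of those 10263 genes, and 1 of its reads counts for 1.29 in the TOTAL table where 1 of library A counts for 0.976. As shares of gene reads, the 10 genes together made up 0.0858%, 0.0794% and 0.0890% of libraries A, B and C.

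**Figure D3:**
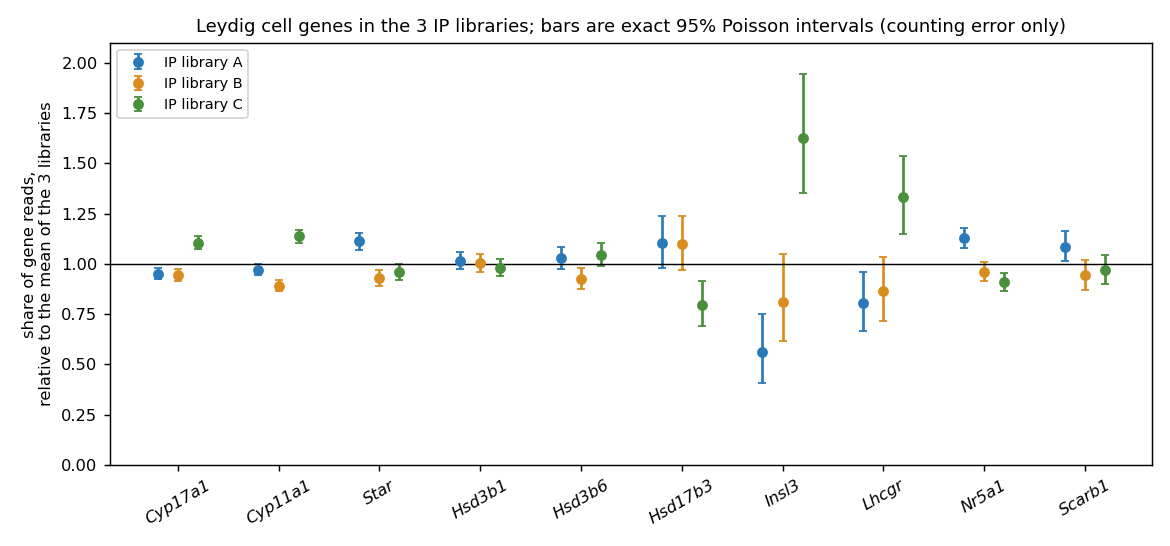
Share of gene reads taken by the 10 genes in IP libraries A, B and C, relative to the mean of the 3, with exact 95% Poisson intervals of the reads (counting error only). *Insl3* (44, 59 and 123 reads) and *Lhcgr* (120, 119 and 191 reads) are highest in library C, and *Hsd17b3* (293, 269 and 203 reads) is lowest there.

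Transcript length runs from 623 nt in *Insl3* to 6828 nt in *Lhcgr* among the 10 genes, and the median log2 ratio over all genes differed with length. Genes with a longest coding transcript within 20% of the length of *Insl3* had a median log2 ratio of -2.22 in IP against TOTAL, where *Insl3* had -4.26. Genes as long as *Hsd17b3* (1286 nt) had a median of -1.10, where *Hsd17b3* had -3.30. Genes as long as *Cyp17a1* (2403 nt) had -0.22 against -2.58, and genes as long as *Lhcgr* had 0.57 against -3.01. Each of the 10 genes was below the median of the genes of like length in this comparison and in the one with INPUT. Against BO the picture was mixed, with *Cyp17a1*, *Cyp11a1* and *Nr5a1* above the median of genes of their length and the other 7 below it. The part of length in these ratios was not tested.

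The rest of the pathway was taken from gene lists, whose counts stand beside the 26.2% of all genes that were lower and the 20.4% that were higher in IP than in TOTAL. Of the genes of cholesterol synthesis 7 of 14 were lower and 1 was higher, with a median log2 ratio of -0.97. In this list 12 of 14 were below 0, where the median of all genes was -0.03. *Msmo1* (-2.26) and *Fdps* (-2.23) were the lowest, and *Lss* (1.02), the lanosterol synthase, and *Sqle* (0.60), the squalene epoxidase, were the highest. Germ cells and other cells make cholesterol as well, so this list is not one of Leydig cells alone. Of the genes for cholesterol supply and mitochondrial import, 5 of 12 were lower and 1 was higher, with a median of -0.25. *Tspo*, a protein of the outer mitochondrial membrane, was at -3.68 and *Npc2*, a lysosomal carrier of cholesterol, at -1.56, while *Lipe*, a cholesterol ester hydrolase with means of 307 in TOTAL and 706 in IP, and *Acbd3* (0.99) were at the other end.

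Of the electron donors that the P450 enzymes need, *Fdx1* and *Fdxr*, which pass electrons to Cyp11a1 in mitochondria, were at log2 ratios of -2.43 and -1.16 in IP against TOTAL, and *Por*, the donor of Cyp17a1, was at 0.42. Against INPUT they were at -0.33, -0.68 and -0.31, and against BO they were at 0.94, 1.49 and 1.19, where the median of all genes was 0.81. Of the other steroid-converting enzymes, 12 of 16 listed passed the filter, 7 were lower and 1 was higher (26.2% and 20.4% of all genes), with a median of -1.55. *Sult1e1*, the estrogen sulfotransferase, was at -3.53 with means of 4603 in TOTAL and 398 in IP, and *Hsd17b11* was at -2.82. *Hsd17b4* was at 0.09, and *Cyp19a1*, the aromatase, was at 2.96 from means of 2.88 in TOTAL and 29.2 in IP.

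Genes of the luteinizing hormone signal and transcription factors of Leydig cells had a median log2 ratio of -0.67 in IP against TOTAL, with 4 of 14 lower, near the 26.2% of all genes, and 0 higher. The lowest were *Nr2f2*, a nuclear receptor of steroidogenic precursor cells, at -2.09 and *Prlr*, the prolactin receptor, at -1.69. *Pde8a*, a cyclic AMP phosphodiesterase, was at 0.73 and *Creb1* at 0.70. Of 9 other Leydig cell markers, 6 were lower than in TOTAL and 0 were higher, with a median of -2.47. *Fabp3*, a fatty acid carrier, was at -3.86 and the kallikrein gene *Klk1b21* at -3.62, while *Pdgfra* (-0.47) and *Ptch1* (0.36) were within 2-fold.

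Low values in IP were also found among markers of other somatic cells, set beside the 26.2% of all genes that were lower than in TOTAL. Of the Sertoli cell markers 9 of 10 were lower in IP than in TOTAL (median -1.87), from *Rhox8* (-3.78) and *Rhox5* (-3.64) to *Trf* (-1.16) and *Sox9* (-0.73). Of the peritubular myoid cell markers 4 of 5 were lower (median -2.59), with *Tagln* (-3.46) and *Cnn1* (-3.03) lowest and *Des* (-1.23) and *Myh11* (0.21) highest. Of the macrophage markers 5 of 7 were lower (median -2.92), with *Lyz2* (-3.69) and *C1qb* (-3.58) lowest and *Csf1r* (-0.96) and *Mrc1* (-0.26) highest. Endothelial markers, with 2 of 6 lower (median -0.27), were near the share of all genes, from *Cdh5* (-1.55) and *Tie1* (-1.40) to *Tek* (0.12) and *Pecam1* (0.41).

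Spermatocyte markers, from the cells that hold L1 ORF1p in these testes, lay on the other side. Of 12 such genes 10 were higher in IP than in TOTAL, beside 20.4% of all genes, and 0 were lower, with a median log2 ratio of 2.27. *Sycp1* was at 2.92 and *Hormad1* at 2.65, both of meiotic chromosome axes or synapsis, while *Ldhc* was at 0.87 and *Pgk2* at -0.16. Markers of spermatogonia had 2 of 7 lower, again near the share of all genes, and 0 higher (median -0.45), with *Uchl1* (-2.54) and *Dmrt1* (-1.69) lowest and *Sall4* (0.24) and *Kit* (-0.33) highest. Of enzymes used in the adrenal gland, *Cyp21a1* had 224 in TOTAL and 43.9 in IP, a log2 ratio of -2.32, and *Cyp11b2*, of aldosterone synthesis, was at 0.209 in TOTAL.

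**Figure D4:**
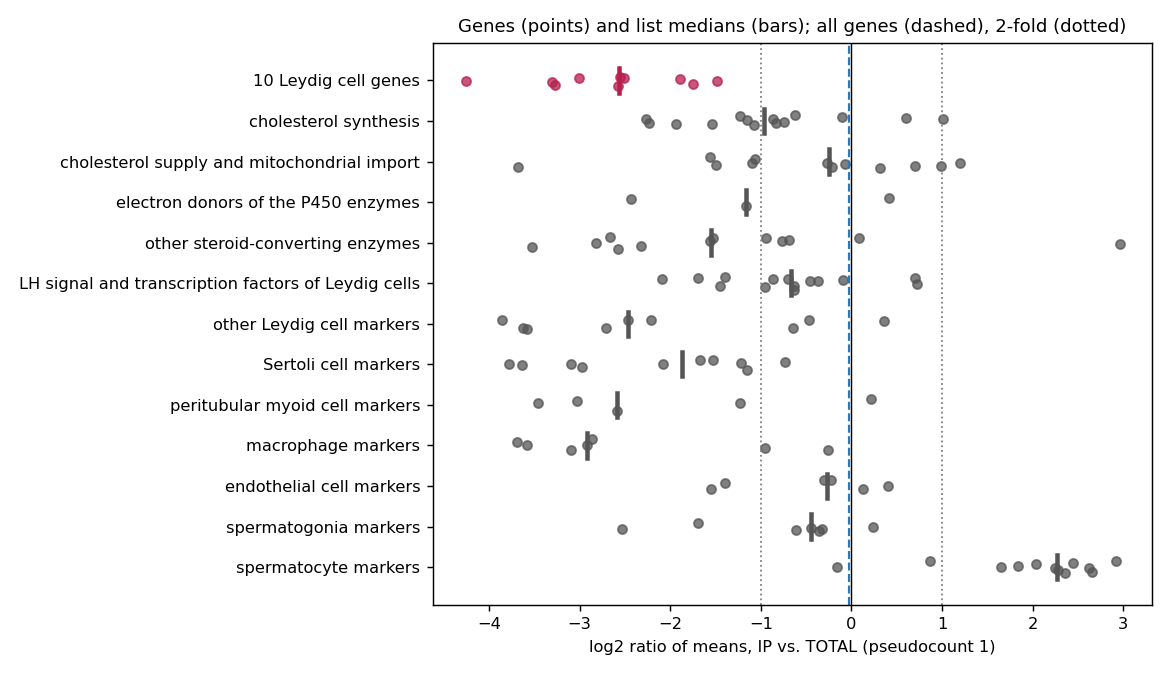
log2 ratio of IP to TOTAL (pseudocount 1) for the 10 Leydig cell genes and for 12 other gene lists, with each gene as a point, the list median as a bar, the median of all genes as a dashed line and 2-fold as dotted lines. The 10 Leydig cell genes lie between -4.26 and -1.48 around a median of -2.57, and the spermatocyte markers lie around 2.27.

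Genes that followed the 10 most closely over the 3 comparisons were named by the distance of their log2 ratios from the medians of the 10 (0.44 against BO, -1.76 against INPUT and -2.57 against TOTAL), among 9311 genes with a mean of at least 100 in each table. The 5 nearest were *Aqp2*, a water channel, at a distance of 0.19, *Reep2* at 0.23, *Amy1* at 0.32, *Creg1* at 0.34 and *Atp6v0e* at 0.37. Of the 10 genes themselves *Star* was nearest to the medians, at 0.17, and *Lhcgr* was farthest, at 3.25. *Aqp2* had 1661 in TOTAL and 261 ± 55.5 (SD, n = 3) in IP in the TOTAL table, and 131 in BO and 199 ± 38.9 in IP in the BO table.

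Promoter windows around the start site were given by RefSeq (GRCm38.p6) for 6 of the 10 genes, in 7 windows. The core AGGTCA of the element bound by nuclear receptors such as Nr5a1 was searched on both strands. It was in 2 of these windows, a *Cyp11a1* window (chr9:58014702-58015001) and that of *Lhcgr*, and in 16.3% of 32851 promoters. That *Cyp11a1* window lies inside the gene as placed above and not at its first base. The other *Cyp11a1* window (chr9:57997774-57998073) lies upstream of the gene and had no match. The longer forms AAGGTCA and CAAGGTCA, which contain the core, were in 0 of the 7 windows and in 4.72% and 1.56% of all promoters. A match describes letters in these windows only.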

How the data were processed

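RNA-seq of 3 libraries each of TOTAL, INPUT, BO and IP from *Mael*-/- testes was used as deposited. The authors mapped reads with STAR v2.6.0c to mm10 and made the gene tables with DESeq2 v1.24.0. The gene counter, annotation and strand setting are not given in the sources used here. The deposited signal is the mean normalized count of each group, rounded to 3 decimals. The tables also hold the authors' log2 fold changes, their errors, test statistics and p-values, which were not used. The repeat table holds normalized signal per library as deposited, from which whole reads were recovered for 100% of values (tolerance 0.1), 1384904 to 7282171 per library. 4 rows that name no gene, as a read counter writes them (no feature, unmapped, ambiguous, multimapping), were left out, 22.1 to 38.6% of a group's sum.

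The IP mean of a gene is a weighted sum of whole reads of the 3 IP libraries, with other weights in each of the 3 tables. Solving these gave whole reads for 99.9948% of the genes with IP reads (tolerance 0.0006). IP values per library are these reads times the worth of 1 read. For BO, INPUT and TOTAL the worth of 1 read in a mean lay between 0.239 and 0.502, 0.244 and 0.329, and 0.209 and 0.326, which bounds their reads. The study calls the 3 libraries of a group biological replicates.

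The log2 ratio was taken between the means of 1 table with a pseudocount of 1, over genes whose mean of the 2 groups reached 10. A design of tests per library could not be used on group means, so genes past 2-fold were counted. Ratios of INPUT to TOTAL and BO to INPUT were joined over the median ratio of the IP means. Alternatives were pseudocounts of 0.1 and 10, other scalings, other filters and leaving out each IP library. The 10 genes and the lists were chosen with earlier results of these data known. All 10 genes were named, and from each list the 2 highest and 2 lowest in IP against TOTAL, with the 5 genes nearest to the medians of the 10. Other listed genes enter the counts and are named only where said. 1 gene was left out of the lists and is not reported here. Lengths and positions are from GENCODE M21. The ratio and read steps were tested on simulated data. Python 3.11.15, pandas 2.3.3, numpy 2.4.6, scipy 1.17.1 and biopython 1.88 were used.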

Additional observations from a re-analysis of the deposited data

How the results depend on the processing

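No paired analysis was possible because the gene tables hold group means, and for the same reason no library of TOTAL, INPUT or BO could be left out. Against TOTAL and INPUT every one of the 10 genes kept a negative log2 ratio under each setting run. The median of the 10 against TOTAL was -2.57, and -3.09 when scaled to the summed gene means or -2.78 to the upper quartile. Against INPUT it was -1.76, and -1.91 when centred on the median gene, -2.30 with summed means or -2.17 with the upper quartile. The genes past 2-fold lower than in INPUT numbered 8 of the 10, and 9 when centred, 10 with summed means and 10 with the upper quartile. In the last 2 settings *Cyp11a1* (-1.39 and -1.27) and *Nr5a1* (-1.31 and -1.19) were past 2-fold as well. Without any 1 IP library the median of the 10 lay between -2.69 and -2.51 against TOTAL, between -1.86 and -1.72 against INPUT and between 0.38 and 0.64 against BO, and 8 or 9 of the 10 were lower than in INPUT by more than 2-fold. Over all settings 220 of the log2 ratios of single genes moved by less than the spread between IP libraries (for the joined tables, by less than 0.1) and 80 moved by more. The 220 include every value with 1 IP library left out. Such a value can hardly move by more than the spread of the same libraries, so these say nothing on stability. Against BO the direction depended on the scaling. The median was 0.44, and -0.37 when centred, 0.15 with summed means and -0.23 with the upper quartile. The 3 genes past 2-fold higher became 0 when centred, 2 with summed means and 0 with the upper quartile. Of the 10, those past 2-fold lower numbered 2, and 3 when centred, 2 with summed means and 3 with the upper quartile. The third was *Hsd3b6*, at -1.20 when centred and -1.06 with the upper quartile. Genes lower than in BO numbered 1522, and 3289 when centred and 2895 with the upper quartile, while those higher numbered 5981, 2500 and 3055. Genes lower than in INPUT numbered 2108, and 4032 with summed means, 3497 with the upper quartile and 1163 at a mean of at least 100, with 2947, 1311 and 1613 higher in the main count and both scalings. Genes lower than in TOTAL numbered 3838, and 2436 at a mean of at least 100, and those higher numbered 2997, and 1433 with summed means. Each scaling moves the genes of a comparison by about 1 amount, apart from genes with low counts, where the pseudocount weighs more. The stricter filter leaves fewer genes.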

Other observations

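*Lhcgr* was not alone among the Leydig cell lists in its level on beads without antibody. Of the 14 genes of luteinizing hormone signalling and transcription, 4 were higher in BO than in INPUT by more than 2-fold and 3 were lower, beside 9.4% and 34.4% of all genes. These 4 were *Prlr* at a log2 ratio of 2.72, *Nr4a1* at 2.09, *Nr2f2* at 1.89 and *Creb1* at 1.60. *Prlr* had a mean of 69626 in BO and 2532 in IP, the latter in the same table. Of the 9 other Leydig cell markers, *Ptch1* (2.25) and *Igf1* (1.90) were higher in BO than in INPUT by more than 2-fold, and 5 were lower by that measure. The kallikrein genes *Klk1b24* (-3.08) and *Klk1b27* (-2.95) were the lowest of these. The genes of this paragraph were named after their values were seen. BO replicate 3, with 52.1% of its repeat signal on large-subunit rRNA, is part of the BO means, and its part in these values was not tested.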
